A study of Mus musculus with 27 samples.

Results

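The cells described here were gs1B8, a single clone of the mouse mammary carcinoma line 4T1 labelled as a Drp1 knockout, set against parental 4T1 cells. The 3 libraries of gs1B8 were the columns that carry its clone code, and the 3 parental libraries were the columns that carry the name of the line alone, which gives 6 of the 27 libraries in the series. Clone gs1B8 carried the genotype label Drp1 KO and the parental cells the label WT, and neither carries a treatment label. The other 5 clones, used where named, were gs2_B4 (Drp1 KO), gs1_B11 and gs2_F6 (Fis1 KO) and gs1_B4 and gs1_C8 (Mff KO), all of the same line. A clone grows from 1 cell, so in gs1B8 the loss of Drp1 and differences that came with the founding cell cannot be told apart. Counts were deposited for 55401 genes, of which 13940 were high enough to test.

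Mitochondria join and divide continually. Drp1, encoded by Dnm1l, is a dynamin-family GTPase that is drawn from the cytosol to the outer mitochondrial membrane by receptors such as Mff, assembles there into rings and constricts the organelle until it divides. The opposite process, fusion, is carried out by the GTPases Mfn1 and Mfn2 on the outer membrane and Opa1 on the inner membrane, and cells without Drp1 typically have long, connected mitochondria. The 4T1 line comes from a BALB/c mammary tumour, keeps epithelial features and metastasises in mice, which is why adhesion, matrix and epithelial genes are described here alongside the mitochondrial ones.

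Library totals were 24391978 to 26500923 counts in gs1B8 and 20715428 to 24753800 in parental cells, and 2.09% to 2.66% of counts in gs1B8, against 2.16% to 2.65% in parental cells, came from ribosomal RNA. Whether the 3 libraries of a group came from different cultures is not stated, so the p-values speak of the spread between libraries, which may be technical. Markers of the labelled cell type were abundant: the 7 carcinoma epithelium genes summed to 2430 to 2610 CPM (counts scaled to a common library size with TMM factors) in gs1B8 and 2900 to 2940 CPM in parental cells, although 1 of them, Cldn7, was at 0 in gs1B8. Sums of 14 leukocyte markers were 1.31 to 1.79 CPM in gs1B8 and 4.09 to 4.93 CPM in parental cells, most of it Csf1r, with 8 of the 14 at 0 in gs1B8 and 10 in parental cells. Csf1r, a macrophage receptor, was at 1.26 CPM in gs1B8 and 4.36 CPM in parental cells, and its part in other results was not tested. Fibroblast markers (10 genes, 5 at 0 in each group) summed to 3.83 to 4.26 CPM in gs1B8 and 4.37 to 4.47 CPM in parental cells. Endothelial markers (9 genes, 3 at 0 in gs1B8 and 4 in parental cells) summed to 3.06 to 5.14 CPM in gs1B8 and 3.94 to 4.93 CPM in parental cells. Adipocyte markers (6 genes, 4 at 0 in gs1B8 and 5 in parental cells) summed to 0.0816 to 0.152 CPM in gs1B8 and 0 to 0.276 CPM in parental cells.

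The targeted transcript was examined first. Dnm1l (ENSMUSG00000022789.15, GRCm38 chromosome 16, 16312230 to 16358959) stood at 71.2, 67.3 and 68.5 CPM in the gs1B8 libraries, against 220.0, 217.0 and 225.7 CPM in the parental libraries. The groups were far apart and each was tight, and the log2 fold change was -1.68 ± 0.05 (SE, n = 3 each, adjusted p = 3e-15 by edgeR's quasi-likelihood test). The transcript was lower but above 0 in every library, and Drp1 protein was not measured. Clone gs2_B4 stood at 41.4 CPM, and gs1B8 was higher than gs2_B4 by 0.74 on the log2 scale.

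The other core fission and fusion genes differed by small amounts or did not pass the threshold. Mff had 84.4, 92.2 and 87.9 CPM in gs1B8, against 80.7, 84.4 and 91.4 CPM in parental cells (log2 0.04 ± 0.06, adjusted p = 0.61). Fis1, an outer membrane protein named as a partner of Drp1, averaged 52.9 ± 3.65 CPM in gs1B8 and 47.6 ± 4.33 CPM in parental cells (SD, n = 3 each, log2 0.15, adjusted p = 0.18), and it passed the threshold with limma voom (log2 0.19). Mfn1 had a log2 fold change of 0.01 (adjusted p = 0.88). Opa1 stood at 133.5, 137.0 and 128.5 CPM in gs1B8, against 157.7, 153.2 and 147.7 CPM in parental cells, a small fall without overlap (log2 -0.20 ± 0.04, adjusted p = 7.9e-04). Mfn2 was at 54.9, 55.2 and 53.8 CPM in gs1B8 and 65.1, 63.4 and 55.8 CPM in parental cells. Its log2 fold change of -0.17 passed the threshold (adjusted p = 0.034), but the call was lost without any 1 of the gs1B8 libraries (-0.16 to -0.18) and without parental replicate 1 (-0.11) or 2 (-0.13). It was also lost with no low-count filter (-0.16), with all 27 libraries (-0.16), with the 6 libraries alone (-0.15) and without ribosomal RNA genes (-0.15).

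Across a list of 18 tested fission genes, 2 rose and 4 fell, close to the share of all tested genes, of which 29.5% were called in either direction. Besides Dnm1l, Mtfp1, an inner membrane protein that promotes fission, fell to 0.820, 0.915 and 0.857 CPM in gs1B8, against 2.36, 2.09 and 2.53 CPM in parental cells (log2 -1.42 ± 0.21, adjusted p = 2.8e-05). Marchf5, a ubiquitin ligase of the outer membrane that acts on Drp1 and its receptors, fell by 0.27 on the log2 scale. Inf2, a formin that builds actin at sites of constriction, rose by 0.29, a call that was lost without gs1B8 replicate 3 (0.25) or parental replicate 3 (0.24). Of 20 tested fusion and cristae genes none rose and 7 fell, including Spg7, a protease of the inner membrane (log2 -0.44), Apool, a subunit of the cristae-organising complex (-0.39), and Samm50, a channel-forming protein of the outer membrane (-0.25). Of these 7, 3 lie on chromosome 8 or X and the median of the other 17 members was -0.065.

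**Figure D1:**
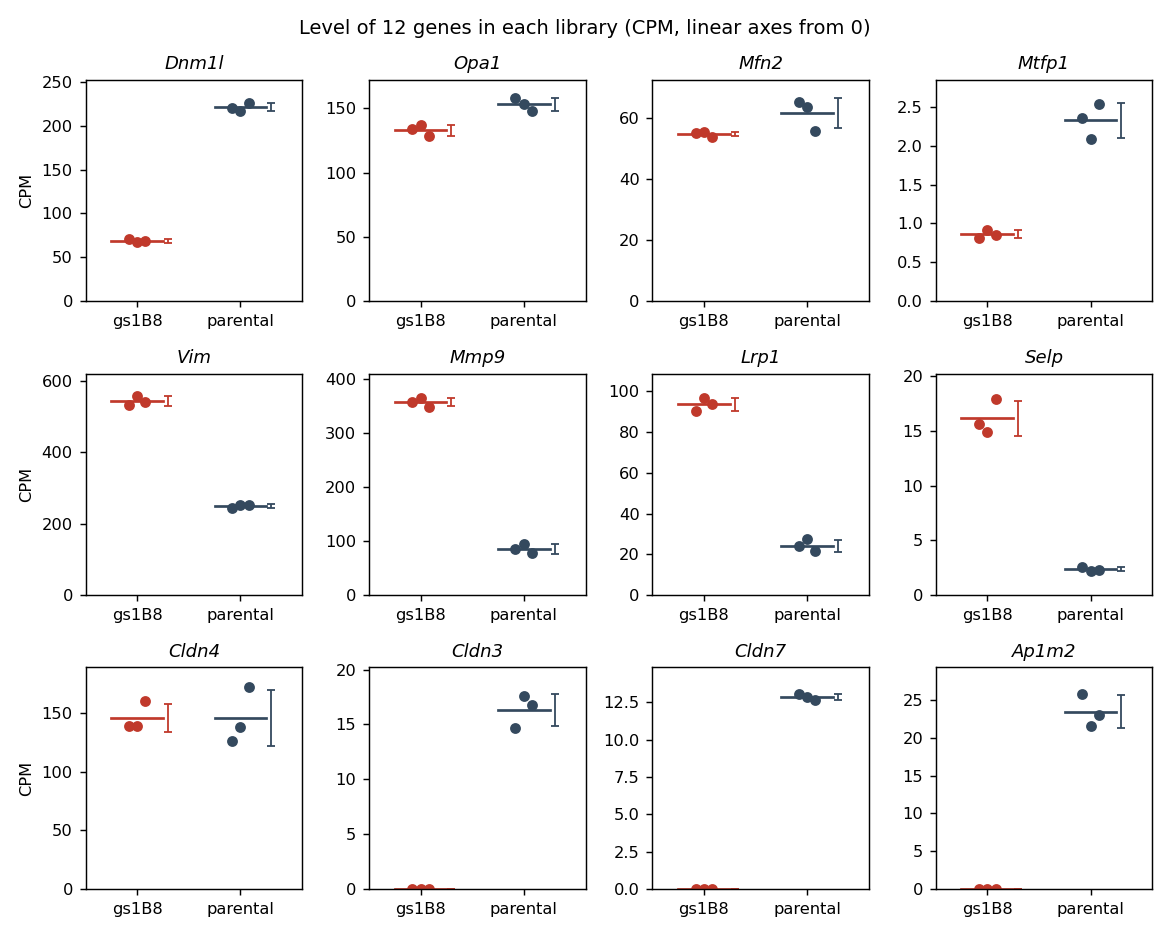
Level of 12 genes in each library, in CPM on linear axes that start at 0, with gs1B8 on the left and parental cells on the right of each panel; points are libraries, horizontal bars are means and the thin error bars are SD (n = 3). Dnm1l lies at 67.3 to 71.2 CPM in gs1B8 against 217.0 to 225.7 CPM in parental cells, Vim and Mmp9 are higher in every gs1B8 library, Cldn3, Cldn7 and Ap1m2 are at 0 in every gs1B8 library, and Cldn4 overlaps.

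Against parental cells, 4109 of the 13940 genes passed the threshold (adjusted p under 0.05). Of these 1685 were higher in gs1B8 (12.1% of tested genes) and 2424 were lower (17.4%). The size of this excess of lower calls depended on the fit. With the 6 libraries alone 1933 were higher and 2178 lower, and without ribosomal RNA genes 1952 and 2204. Most differences were small: 74% of the called genes differed by less than 1.5-fold, and the median change was 0.32 on the log2 scale among those higher and -0.37 among those lower. Past 2-fold there were 197 genes higher and 410 lower, and past 4-fold 51 higher and 196 lower. The median of all tested genes was -0.01 after TMM scaling, which by its construction brings the bulk of genes near 0.

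Among the genes that rose most in gs1B8 were surface receptors, a protease and inhibitors of cytotoxic enzymes. Samsn1, an adaptor protein best known from lymphocytes, stood at 6.68, 7.05 and 5.92 CPM in gs1B8, against 0.337, 0.241 and 0.0921 CPM in parental cells (log2 4.85 ± 0.46, adjusted p = 3.6e-09). Selp, the adhesion receptor P-selectin, stood at 15.6, 14.9 and 17.9 CPM, against 2.55, 2.25 and 2.26 CPM (log2 2.78 ± 0.22, adjusted p = 3.8e-09). Mmp9, a gelatinase that degrades basement membrane collagen, stood at 357.4, 364.4 and 348.4 CPM in gs1B8, against 84.8, 94.2 and 77.1 CPM in parental cells (log2 2.06 ± 0.14, adjusted p = 3.9e-09). In each of these genes every gs1B8 library lay above every parental library, as the rule that picked them required. Of all 13940 tested genes, 2728 had every gs1B8 library above every parental library. Lrp1, a large endocytic receptor, rose by 1.95 ± 0.11 to 93.7 ± 3.27 CPM in gs1B8, against 24.3 ± 2.95 CPM in parental cells (SD, n = 3 each). Serpinb9, an inhibitor of granzyme B, averaged 94.1 ± 12.3 CPM in gs1B8 and 25.1 ± 2.96 CPM in parental cells (log2 1.91), and its relative Serpinb9b rose by 2.39. These serpin genes are close copies, so reads may have been shared between them.

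The rest of the 15 genes that rose most among those of at least 5 CPM were of mixed function. Sema6a, a membrane-bound semaphorin, rose by 2.56 ± 0.27 to 7.97 CPM in gs1B8, against 1.32 CPM in parental cells. Dapk1, a death-associated kinase, rose by 1.96, Mab21l4 by 1.89, Armcx4 by 1.70, Ctsw, a papain-like protease known from cytotoxic lymphocytes, by 1.70, and the long noncoding RNA Lncenc1 by 1.69. Lncenc1 stood at 198.1, 176.8 and 176.2 CPM in gs1B8 against 58.6, 59.0 and 53.4 CPM in parental cells. The guanylate-binding proteins Gbp2 and Gbp2b, GTPases induced by interferon, rose by 1.61 and 1.59, and Ckap4, a membrane protein of the endoplasmic reticulum, by 1.55 ± 0.09.

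The genes that fell most included several of epithelial tight junctions and membrane transport that were silent or nearly silent in gs1B8. Ap1m2, the epithelial subunit of an adaptor that sorts cargo to the basolateral membrane, had 0 counts in all 3 gs1B8 libraries, against 25.9, 21.6 and 22.97 CPM in parental cells. That made it at least 585-fold lower, taking 3 counts over the group as the floor (adjusted p = 7.7e-13). Cldn3 and Cldn7, claudins that seal tight junctions, also had 0 counts in gs1B8 and stood at 14.7, 17.6 and 16.8 CPM and at 13.1, 12.8 and 12.6 CPM in parental cells. They were at least 411-fold and at least 322-fold lower (adjusted p of 5.8e-08 and 1.1e-07). Mal2, a membrane protein of transcytosis, had 2 counts over the 3 gs1B8 libraries and 66.7 ± 8.33 CPM in parental cells, a ratio of 2500 with a 95% counting interval of 692 to 20700.

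The genes next to these were mostly close to their parental level. Cldn4, which lies next to Cldn3 on chromosome 5, was at 138.9, 139.1 and 159.8 CPM in gs1B8 and 126.4, 137.7 and 172.3 CPM in parental cells (log2 0.00, adjusted p = 0.98), while Abhd11 on the other side of Cldn3 was lower by 0.30 (log2 -0.30). Cldn4 and the other neighbours given here were chosen for their position among tested genes of at least 1 CPM in gs1B8 or parental cells. Eif5a and Elp5 were the nearest such genes on either side of Cldn7 on chromosome 11. Their log2 fold changes of 0.11 and 0.09 did not pass the threshold. Around Ap1m2 on chromosome 9, Cdkn2d and Slc44a2 had log2 fold changes of -0.25 and -0.10, also short of the threshold. Levels in the other 5 clones varied by gene. Cldn3 was at 0 in gs2_B4, gs1_B11, gs2_F6 and gs1_B4 and at 0.0121 CPM in gs1_C8, whereas Ap1m2 was at 0.0 in gs2_B4 and gs1_B11 and at 0.0139 CPM in gs2_F6 but at 16.6 CPM in gs1_B4 and 53.2 CPM in gs1_C8.

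The promoters of Ap1m2, Cldn3 and Cldn7 are shown because these were the named genes with 0 counts in gs1B8 and at least 5 CPM in parental cells. Each runs from 250 bases before to 50 bases after a RefSeq transcript start (GRCm38.p6), 5′ to 3′ on the strand of the gene, with CG dinucleotides, the sites of DNA methylation, in capitals. Cldn7 has a pair of starts in the table. The coordinates are chr9:21312284-21312583 on the minus strand for Ap1m2, chr5:134985964-134986263 on the plus strand for Cldn3, and chr11:69964529-69964828 and chr11:69965171-69965470 on the plus strand for Cldn7.
Ap1m2: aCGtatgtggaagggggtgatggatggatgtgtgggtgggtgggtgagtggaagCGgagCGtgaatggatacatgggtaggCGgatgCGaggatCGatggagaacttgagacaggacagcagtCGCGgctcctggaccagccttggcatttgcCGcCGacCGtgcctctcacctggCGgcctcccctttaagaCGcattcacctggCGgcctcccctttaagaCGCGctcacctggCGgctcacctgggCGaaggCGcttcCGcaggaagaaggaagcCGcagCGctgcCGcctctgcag
Cldn3: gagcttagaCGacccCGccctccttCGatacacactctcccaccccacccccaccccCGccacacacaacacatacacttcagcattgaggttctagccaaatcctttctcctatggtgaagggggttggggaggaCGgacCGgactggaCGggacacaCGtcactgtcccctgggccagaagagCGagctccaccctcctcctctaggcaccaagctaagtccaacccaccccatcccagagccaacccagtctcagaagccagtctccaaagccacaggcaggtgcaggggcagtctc
Cldn7, first start: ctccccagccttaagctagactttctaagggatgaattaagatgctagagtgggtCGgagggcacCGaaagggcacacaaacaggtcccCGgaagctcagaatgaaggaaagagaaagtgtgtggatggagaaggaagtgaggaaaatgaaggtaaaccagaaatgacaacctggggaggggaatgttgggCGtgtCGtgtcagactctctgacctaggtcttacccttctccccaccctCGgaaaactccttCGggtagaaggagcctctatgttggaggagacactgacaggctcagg
Cldn7, second start: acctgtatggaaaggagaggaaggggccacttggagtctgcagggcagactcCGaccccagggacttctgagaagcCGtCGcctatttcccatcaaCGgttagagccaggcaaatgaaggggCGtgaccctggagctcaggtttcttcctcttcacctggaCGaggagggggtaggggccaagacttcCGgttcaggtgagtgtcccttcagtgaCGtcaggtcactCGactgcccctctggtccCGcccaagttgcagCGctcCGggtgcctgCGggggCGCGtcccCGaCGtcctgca

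The Ap1m2 window held 23 CG dinucleotides, a number that 21.5% of the 32851 promoters of the table reach. The Cldn3 window held 9 (45.8% of promoters reach it), and the Cldn7 windows held 7 and 17 (52.1% and 31.4%), against a median of 7 over all promoters. CACCTG or its reverse complement CAGGTG, the letters bound by the repressors Zeb1, Zeb2 and Snai1, occurred 4 times in the Ap1m2 window, 1 time in the Cldn3 window and 0 and 2 times in the Cldn7 windows, and 20.2% of all promoters held at least 1. This motif was picked after the values of these genes were seen, and a match of letters is a description and not a binding site. DNA methylation and factor binding were not measured.

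Other genes among the 15 that fell most were under 1 CPM in gs1B8. Fam111a, a protease of replicating chromatin, had 3 counts over the gs1B8 libraries and 77.1, 72.9 and 77.2 CPM in parental cells (ratio 1890, counting interval 647 to 9180). Lrrk2, the kinase mutated in familial Parkinson disease, had 2 counts and stood at 14.3, 13.3 and 15.4 CPM in parental cells (ratio 537, interval 148 to 4440). Parvb, the adhesion adaptor beta-parvin, fell by 8.41 ± 0.63 on the log2 scale to 0.0536 CPM in gs1B8, against 19.7 CPM in parental cells. Zfp518b had 3 counts (ratio 264, interval 90.1 to 1290) and Bspry 2 counts (ratio 318, interval 87.6 to 2630). Vgll3, a cofactor of TEAD transcription factors, fell by 6.92, Kcnk6, a potassium channel, by 6.13, Car9, a carbonic anhydrase of hypoxic cells, by 4.99, and the unconventional myosin Myo5c, which carries secretory vesicles, by 4.85. Nox4, an oxidase that makes hydrogen peroxide, fell by 4.83 ± 0.23 to 0.545 CPM in gs1B8, against 15.7 CPM in parental cells, and the tubulin gene Tubb2b fell by 4.76 ± 0.24.

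In all, 47 genes, 43 of them protein coding, were under 0.1 CPM in gs1B8 while at 1 CPM or more in parental cells, and 4 genes were the other way round. Of these 4, 3 were processed pseudogenes and the fourth was Slc35f1, at 2.01, 2.40 and 2.53 CPM in gs1B8 against 0.144, 0 and 0.138 CPM in parental cells (log2 4.62 ± 0.80, adjusted p = 4.4e-06). Of the 47 genes, 11 were above 0.1 CPM in all 5 other clones, while 4 were under it in all 5. The genes near 0 throughout were Cldn3, Cldn7, Cadps2 and Epdr1, named after their values were seen. All clones share the parental libraries as their control, so these are levels set side by side and not independent changes.

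A stricter question was which genes set gs1B8 apart from parental cells and from each of the 5 other clones, by a call of the same sign in all 6 contrasts. There were 56 such genes higher in gs1B8 (0.402% of tested genes) and 77 lower (0.552%). The 10 lower genes whose smallest difference was greatest lie on 6 chromosomes, with 4 of them (Lrrk2, Parvb, Ift27 and Rims2) on chromosome 15. Fam111a, at 0.0409 CPM in gs1B8, lay between 25.5 and 108.1 CPM in the other clones and at 75.7 CPM in parental cells. Lrrk2 lay at 0.0273 CPM against 8.01 to 20.4 CPM in the other clones and 14.3 CPM in parental cells, and Parvb at 0.0536 CPM against 16.4 to 25.8 and 19.7 CPM. Sh3tc2, an endosomal protein needed for peripheral myelin, and Ift27, a subunit of the train that moves cargo in cilia, had 0 counts in gs1B8. Sh3tc2 was at 2.43 to 5.23 CPM in the other clones and 2.64 CPM in parental cells, at least 66.8-fold lower in gs1B8 than in parental cells, and Ift27 was at 0.696 to 1.33 and 0.959 CPM, at least 24.1-fold lower.

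The remaining 5 named genes of that kind were higher in every other clone, as the rule required, though Ago4 and Ptges were low in some of them. Rims2, a scaffold of synaptic vesicle release, had 1 count in gs1B8 (0.0127 CPM) against 2.46 to 3.70 CPM in the other clones and 2.56 CPM in parental cells. Kcnk6 lay at 0.120 CPM against 2.63 to 23.1 and 8.75 CPM, and Piezo2, a mechanically gated ion channel, at 0.0800 CPM against 3.08 to 12.3 and 4.30 CPM. Ago4, a member of the Argonaute family that binds small RNAs, had 2 counts in gs1B8 (0.0264 CPM). It was at 0.167 to 1.91 CPM in the other clones and 0.557 CPM in parental cells, and its neighbour Ago1 did not pass the threshold (log2 0.02). Ptges, which makes prostaglandin E2, lay at 0.0954 CPM in gs1B8, 0.374 to 2.79 CPM in the other clones and 1.17 CPM in parental cells. For each of these 10 genes, the 24 nearest genes of at least 1 CPM in gs1B8 or parental cells were also read. Their median log2 fold change lay between -0.18 and 0.10. Some of the genes directly beside them passed the threshold. Tst beside Ift27 (log2 -1.33), 1500015A07Rik beside Sh3tc2 (-0.67) and Yif1b beside Kcnk6 (-0.65) were lower. So were Samm50 beside Parvb (-0.25), Dcaf13 beside Rims2 (-0.17) and Tor1b beside Ptges (-0.15). Psmd8 beside Kcnk6 (0.20) and Lrp12 beside Rims2 (0.23) were higher.

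The 10 higher genes whose smallest difference was greatest stood at 11.3 CPM or less in gs1B8. Armcx4, a member of a family of X-linked armadillo-repeat genes, was at 12.9, 10.02 and 11.1 CPM in gs1B8, at 0.0122 to 2.55 CPM in the other clones and at 3.49 CPM in parental cells. Mex3b, an RNA-binding protein, averaged 8.12 ± 0.429 CPM in gs1B8, 2.93 to 5.63 CPM in the other clones and 3.51 ± 0.23 CPM in parental cells. Ndrg4 was at 6.55 CPM against 1.23 to 4.46 CPM in the other clones and 2.69 CPM in parental cells, and Satb1, a chromatin organiser, at 2.32 CPM against 0 to 0.701 and 0.732 CPM. Ankrd6, Ecscr, Tlx3, Gsdmc4, Gstk1 and Pcdh18 stood between 0.749 and 1.48 CPM in gs1B8 and under 0.5 CPM in parental cells.

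**Figure D2:**
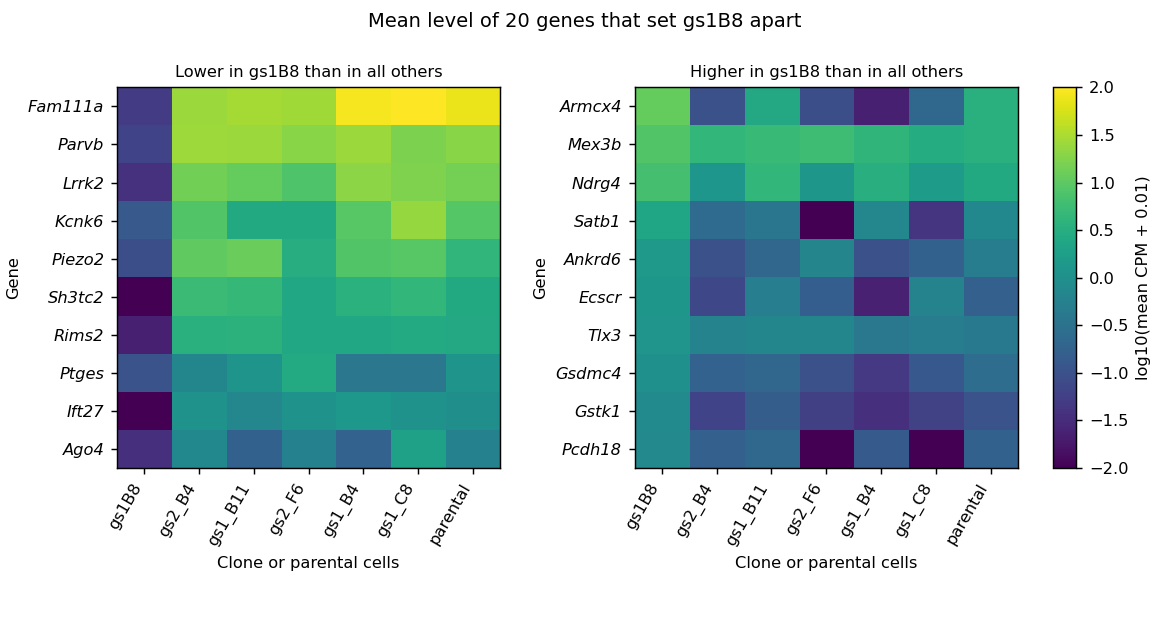
Mean CPM (n = 3 libraries) of the 10 lower and 10 higher genes that set gs1B8 apart, as log10 of CPM plus 0.01, with genes in rows and gs1B8, the other 5 clones and parental cells in columns from left to right. The gs1B8 column is dark for Fam111a, Parvb and Lrrk2, which lie between 8.01 and 108.1 CPM in all other columns, and bright for Armcx4, at 11.3 CPM against at most 3.49 CPM elsewhere.

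The direct comparison of gs1B8 with gs2_B4, the other Drp1 clone, called 5712 genes, 41% of those tested, with 2911 higher in gs1B8 (20.9%) and 2801 lower (20.1%), a larger number than between gs1B8 and parental cells. Past 2-fold there were 270 genes higher in gs1B8 and 562 lower. Some genes of at least 5 CPM in gs1B8 were much lower in gs2_B4. The zinc finger gene Zfp518a was at 18.9, 19.4 and 20.1 CPM in gs1B8 and had 1 count in gs2_B4 (ratio 1510, counting interval 271 to 59800), and the T-box factor Eomes was at 8.85, 7.36 and 8.65 CPM in gs1B8 and had 1 count in gs2_B4 (ratio 642, interval 115 to 25400). Dsc2, a desmosomal cadherin, was at 8.19 CPM in gs1B8 and had 2 counts in gs2_B4 (ratio 318), and Fstl3, an activin-binding protein, was at 8.26 CPM and had 3 counts in gs2_B4 (ratio 214). Tmem266 was at 6.02 CPM in gs1B8 and 0.0761 CPM in gs2_B4. Crip1 was at 30.4 CPM in gs1B8 and 0.740 CPM in gs2_B4, Nqo1, an antioxidant reductase, at 8.88 and 0.272 CPM, and Ubqln2, a proteasome shuttle protein, at 24.9 and 1.78 CPM. Of these, Crip1, Nqo1, Eomes, Tmem266 and Ubqln2 were also lower in gs1B8 than in parental cells, by log2 differences of -1.32, -0.68, -0.67, -0.57 and -0.51.

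Other genes were the reverse. Hexa, a subunit of lysosomal hexosaminidase, had 2 counts in gs1B8 and averaged 21.6 CPM in gs2_B4 (ratio of gs2_B4 over gs1B8 810, interval 224 to 6700), with 3.65 CPM in parental cells. Zfp518b had 3 counts in gs1B8 against 33.2 CPM in gs2_B4, so of the Drp1 clones gs2_B4 was near 0 for Zfp518a and gs1B8 for Zfp518b. This was not particular to gs1B8: Hexa and Zfp518b were also at 0 CPM in gs1_B11 and gs2_F6, and Zfp518b was at 0.0361 CPM in gs1_B4. Tgfbr3, a coreceptor for TGF-beta, had 0 counts in gs1B8 and 5.56 CPM in gs2_B4, at least 140-fold lower in gs1B8. Vgll3 was at 0.0663 CPM in gs1B8 and 27.7 CPM in gs2_B4 (log2 difference -8.60 ± 0.52). Cldn9 stood at 0.198 CPM in gs1B8 and 31.6 CPM in gs2_B4, and Zfp985 at 0.305 CPM in gs1B8 and 42.2 CPM in gs2_B4.

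Gene lists were then read against the shares of all tested genes called higher (12.1%) and lower (17.4%). Genes of cell attachment and mesenchymal character were more often higher. Of 32 tested genes for integrins and focal adhesions, 14 were higher in gs1B8 and 3 lower, with a list median of 0.19 against -0.01 for all genes. Itgb3, the beta subunit of the vitronectin receptor, was at 4.22, 4.95 and 3.79 CPM in gs1B8, against 0.577, 1.00 and 0.783 CPM in parental cells (log2 2.43 ± 0.25, adjusted p = 1.7e-07). Itga7, a laminin receptor subunit, rose by 1.06, and the integrin activators Fermt2 and Fermt1 rose by 0.73 ± 0.06 and 0.70 ± 0.07, Fermt2 to 111.1, 119.5 and 114.2 CPM in gs1B8 against 66.5, 71.1 and 69.8 CPM in parental cells.

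Among 24 mesenchymal and matrix genes 10 rose and 4 fell (median 0.25). Vim, the intermediate filament of mesenchymal cells, was at 532.3, 559.5 and 541.9 CPM in gs1B8, against 244.2, 252.3 and 252.4 CPM in parental cells (log2 1.12 ± 0.07, adjusted p = 3.2e-10). The transcription factors Zeb2 and Twist1, which repress epithelial genes, rose by 0.95 ± 0.10 and 0.82 ± 0.09, Zeb2 to 22.3, 22.2 and 25.1 CPM against 11.1, 11.99 and 12.9 CPM. Col5a1, a fibrillar collagen chain, rose by 1.23. The 4 that fell were Tgfbi, which had 1 count in gs1B8 and 32 in parental cells, Postn, and the basement membrane collagens Col4a1 and Col4a2 on chromosome 8 (log2 -0.30 and -0.41). These 4 were named after their values were seen.

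Genes of the contractile machinery and matrix proteases were also examined. Of 28 actin genes 9 rose and 3 fell (median 0.15), with Tpm1, a tropomyosin, at 987.1, 1027 and 900.9 CPM in gs1B8 against 685.9, 658.2 and 646.4 CPM in parental cells (log2 0.55 ± 0.08, adjusted p = 4.1e-05), and Pfn1, Cald1 and Cnn3 higher by 0.43, 0.32 and 0.25. Of 24 matrix proteases and inhibitors 9 rose and 5 fell, both above the background shares. Beside Mmp9, the membrane-type metalloprotease Mmp14 rose by 0.47 ± 0.05 and the sheddase Adam19 by 0.57 ± 0.07, while Plat, the tissue plasminogen activator, fell by 1.28 ± 0.21 to 1.38 CPM in gs1B8 against 3.38 CPM in parental cells. Serpine2, an inhibitor of such proteases named after its values were seen, had 0 counts in gs1B8 and 38 in parental cells. Caveolae genes split, with Cav1 higher by 0.89, Cavin1 by 0.25 and Cavin3 by 0.42, a call that Cavin3 lost without gs1B8 replicate 1 (0.38) or parental replicate 2 (0.40), and Cavin2 lower by 1.20.

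Epithelial genes moved both ways. Of 41 tested junction and identity genes 8 rose and 10 fell (median -0.04). Beside the lost claudins, Marveld3, a tight junction protein, fell by 1.07 ± 0.08, and Esrp2, a splicing factor of epithelial cells, by 0.54 ± 0.05, and both lie on chromosome 8. Cdh1, the classical epithelial cadherin, also on chromosome 8 and chosen as a marker, was at 378.2, 352.9 and 337.4 CPM in gs1B8 and 408.5, 386.1 and 339.8 CPM in parental cells, groups that overlapped (log2 -0.09). Of 13 genes of apical sorting and vesicle traffic 7 fell and 1 rose (median -0.32). Among those that fell was Rab25, a recycling GTPase of epithelia (log2 -1.33 ± 0.10, adjusted p = 4e-09 by edgeR). Rab25 was at 11.1, 12.2 and 13.2 CPM in gs1B8 against 31.2, 29.3 and 31.4 CPM in parental cells. Among 9 keratins Krt19, Krt80 and Krt7 fell by 0.90, 0.48 and 0.41 and the basal keratins Krt17 and Krt14 rose by 2.22 and 0.70. Krt14, named after its values were seen, was at 103.1 ± 6.08 CPM in gs1B8 and 63.6 ± 8.08 CPM in parental cells (SD, n = 3 each).

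**Figure D3:**
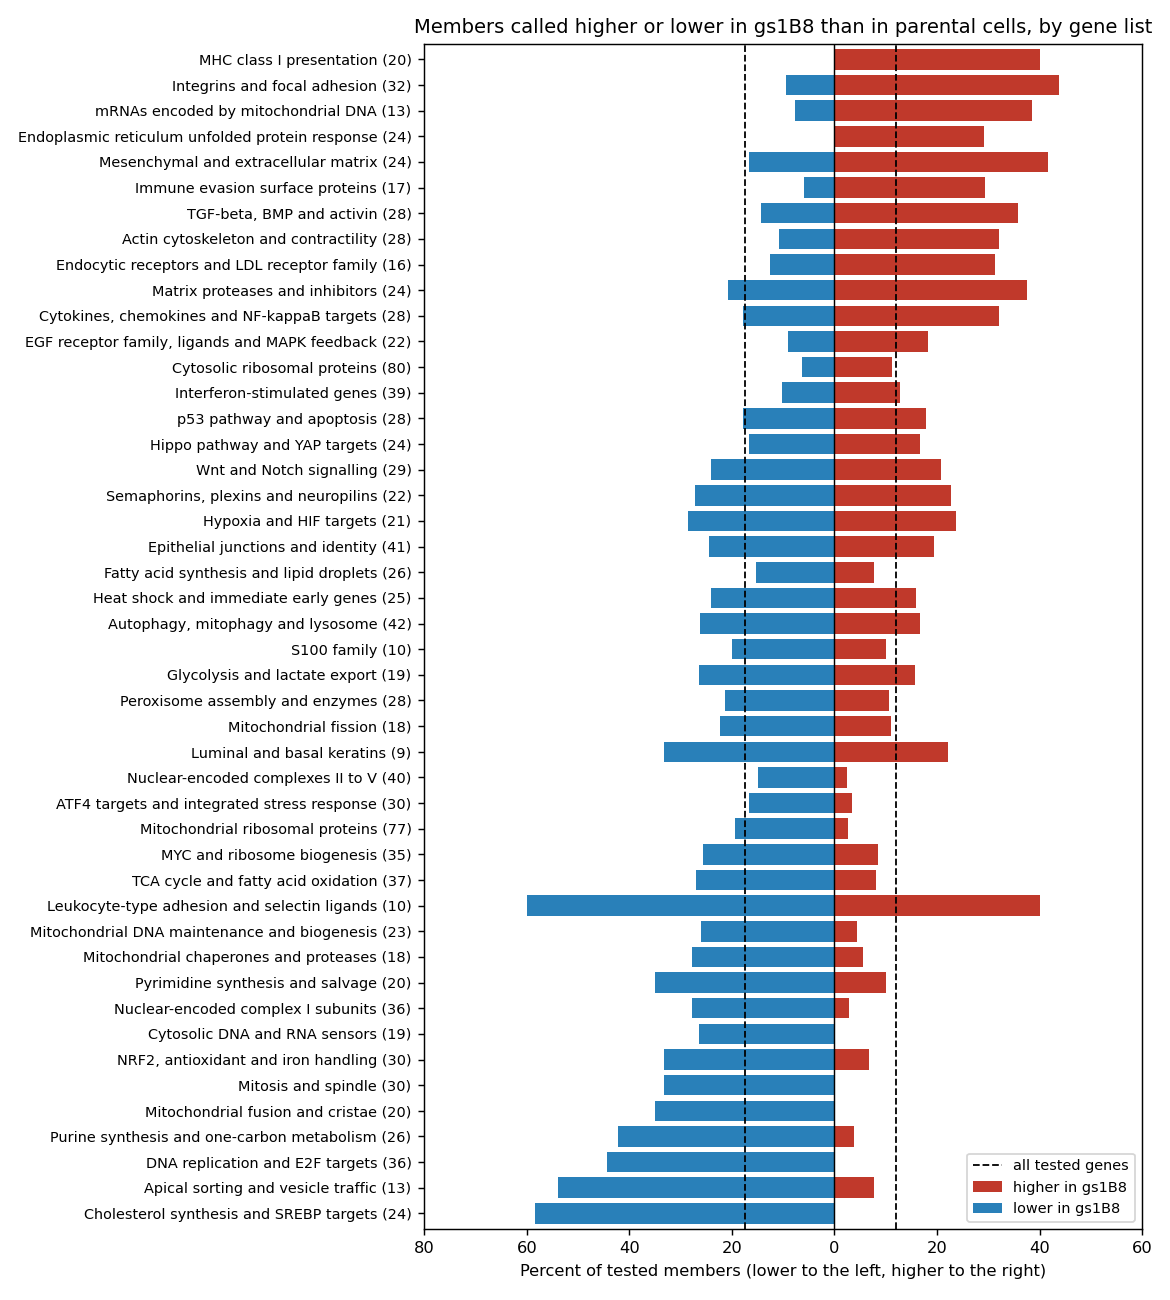
Percent of the tested members of each gene list called higher (red, right) or lower (blue, left) in gs1B8 than in parental cells, with the number of tested members in parentheses; dashed lines mark the shares of all tested genes, 12.1% and 17.4%. MHC class I, integrin, mitochondrial DNA and unfolded protein response lists lie at the top with more higher calls, followed by the mesenchymal list. Cholesterol, apical sorting and vesicle traffic, and DNA replication lists lie at the bottom with more lower calls.

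Antigen presentation genes were called in 1 direction. Of 20 tested MHC class I genes 8 rose and none fell (median 0.18). Chromosome 17, which holds H2-K1 and H2-D1, also had more higher than lower calls, and the list was not counted without it. Psme1, a subunit of the proteasome activator, was at 72.7, 80.1 and 73.3 CPM in gs1B8, against 43.9, 41.3 and 42.5 CPM in parental cells (log2 0.82 ± 0.10, adjusted p = 5e-06), and the class I heavy chains H2-K1 and H2-D1 rose by 0.45 and 0.38. Interferon-stimulated genes showed no common direction, with 5 of 39 higher and 4 lower, near the background. Gbp2 rose, while Oasl1, Ifit2 and Ifi27 fell by 2.20, 0.97 and 0.74. With the 6 libraries fitted alone 16 of these 39 genes were called, so that count depended on the fit. Of 19 nucleic acid sensors 5 fell and none rose, among them Tlr3, an endosomal receptor for double-stranded RNA (log2 -0.92 ± 0.10, on chromosome 8), Ifih1 (-0.40) and Dhx58, whose call was lost without parental replicate 1 (log2 -1.37), without gs1B8 replicate 2 (-1.82) or 3 (-1.61), or with limma voom (-1.67).

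Genes of cytokines and leukocyte adhesion were called in both directions. All 10 tested genes of leukocyte-type adhesion were called, 4 higher and 6 lower. Opposite to Selp, the vascular adhesion molecule Vcam1 fell to 5.08, 4.73 and 5.55 CPM in gs1B8, against 28.96, 26.9 and 27.4 CPM in parental cells (log2 -2.44 ± 0.13, adjusted p = 3.9e-11), St3gal6, a sialyltransferase that helps make selectin ligands, fell by 2.02 and Alcam by 1.41. Of 28 cytokine and NF-kappaB genes 9 rose and 5 fell. The neutrophil attractant Cxcl3 fell to 2.09, 1.75 and 1.92 CPM in gs1B8 against 19, 19.4 and 26.3 CPM in parental cells (log2 -3.49 ± 0.31, adjusted p = 2.9e-08). The pathway members Nfkbie, Birc3 and Relb rose by 1.42, 0.65 and 0.61. Lcn2, an iron-binding protein named after its values were seen, had 14 counts in gs1B8 and 0 in parental cells. Of 17 surface genes listed for immune recognition and evasion 5 rose and 1 fell. Ulbp1 and Nt5e rose by 0.47 and 0.43 and H60b fell by 0.49. The list mixes both roles, so its counts have no single reading.

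Mitochondrial genes were read by genome of origin, without a test between the genomes. Of 13 mRNAs encoded by mitochondrial DNA 5 rose and 1 fell (median 0.26). The complex I subunit mt-Nd2 was at 3062, 3255 and 3068 CPM in gs1B8, against 2481, 2561 and 2175 CPM in parental cells (log2 0.38 ± 0.06, adjusted p = 1.3e-04), mt-Nd1 rose by 0.30, mt-Nd3 by 0.60 and mt-Atp8 by 0.26, while mt-Co1, named after its values were seen, fell by 0.14 with overlapping libraries. Libraries were selected for polyadenylated RNA, whose tails on mitochondrial transcripts are short. Of 36 nuclear-encoded complex I subunits 1 rose and 10 fell (median -0.09), led by Ndufa8 at 44.7, 46.7 and 47.1 CPM in gs1B8 against 60.1, 62.3 and 65.8 CPM in parental cells (log2 -0.44 ± 0.06), and 4 of the 10 lie on chromosome 8 or X. Of 40 subunits of complexes II to V 1 rose and 6 fell, a share under that of all genes. Of 77 mitochondrial ribosomal proteins 2 rose and 15 fell, with lower calls near the background share.

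Of 23 genes that maintain mitochondrial DNA 6 were lower and 1 higher (median -0.17), and the 30.4% called was near the 29.5% of all genes. Tk2, the mitochondrial thymidine kinase, fell to 6.72, 5.22 and 6.45 CPM in gs1B8 against 11.4, 10.02 and 10.8 CPM in parental cells (log2 -0.81 ± 0.11, adjusted p = 1.6e-05, chromosome 8), Top1mt, the mitochondrial topoisomerase, by 0.69 and the helicase Twnk by 0.26. In the tricarboxylic acid cycle and fatty acid oxidation list 3 of 37 rose and 10 fell. Pdha1, a subunit of pyruvate dehydrogenase on the X chromosome, fell to 189.0, 189.9 and 185.4 CPM in gs1B8, against 281.0, 288.8 and 288.1 CPM in parental cells (log2 -0.60 ± 0.03, adjusted p = 1.2e-10), Idh3g fell by 0.37, and Sucla2, on chromosome 14, rose by 0.27.

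Sterol genes that passed the threshold were all lower. Of 24 tested cholesterol synthesis genes and targets of SREBP, the sterol-sensing transcription factor, none rose and 14 fell, with a median of -0.30. Nsdhl fell to 56.4, 52.2 and 58.7 CPM in gs1B8, against 80.0, 79.5 and 92.5 CPM in parental cells (log2 -0.59 ± 0.09, adjusted p = 7.5e-05), and Msmo1, Mvk and Ebp fell by 0.49, 0.43 and 0.40. Mvk lost its call when all 27 libraries were fitted together (-0.42). Of the 14, 4 lie on chromosome 8 or X, and without the members there 10 of 20 fell (median -0.23).

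Nucleotide synthesis genes were called in both directions. Among 20 pyrimidine genes 7 fell and 2 rose, 3 of the 7 on chromosome 8 or X, which leaves 4 of 16 lower elsewhere. Dhodh, the mitochondrial enzyme of pyrimidine synthesis that leflunomide inhibits, was at 13.9, 12.6 and 11.7 CPM in gs1B8, against 19.6, 18.5 and 16.8 CPM in parental cells (log2 -0.53 ± 0.06, adjusted p = 3.5e-06, chromosome 8), and Uck2, a salvage kinase, rose by 0.19. Among 26 purine and one-carbon genes 11 fell and 1 rose, 4 of the 11 on chromosome 8 or X, including Prps1 and Prps2, which make the ribose donor of nucleotides (log2 -0.37 and -0.23), and Impdh1 and Impdh2, on chromosomes 6 and 9, of guanine synthesis (-0.35 and -0.23).

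Growth genes were lower by small amounts. Of 36 DNA replication genes 16 fell and none rose (median -0.11), but 7 of the 16 lie on chromosome 8 or X, and without the members there 9 of 29 fell. Off those chromosomes Ccne1, the cyclin of S-phase entry, fell by 0.65 ± 0.07 and E2f1, a transcription factor of the same step, by 0.56 ± 0.06, E2f1 to 23.9, 25.2 and 25.6 CPM in gs1B8 against 37.3, 37.1 and 36.1 CPM in parental cells (adjusted p = 2.6e-07). On chromosome 8, Gins3 and Mcm5, parts of the replicative helicase, fell by 0.67 and 0.54. Of 30 mitosis genes 10 fell and none rose, with Cdc25b, Kif20a, Plk1 and Aurka lower by 0.30, 0.24, 0.21 and 0.21, and none of the 30 lies on chromosome 8 or X. Against gs2_B4 the mitosis genes stood the other way, with 19 higher in gs1B8 and 0 lower. Among 80 cytosolic ribosomal proteins 9 rose and 5 fell, both under the background shares.

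Stress pathways did not move as one. Of 24 genes of the unfolded protein response of the endoplasmic reticulum 7 rose and none fell (median 0.07), among them the chaperones Dnajc3 (log2 0.50 ± 0.06), Hyou1 (0.36 ± 0.07) and Pdia6 (0.34 ± 0.05). Targets of ATF4, the effector of the integrated stress response, gave 1 higher and 5 lower of 30, with the amino acid transporter genes Slc7a5 and Slc3a2 lower by 0.41 and 0.28. Among 30 antioxidant and iron genes 10 fell and 2 rose. Slc40a1, the iron exporter ferroportin, fell by 3.05 ± 0.46 to 0.106 CPM in gs1B8, against 0.920 CPM in parental cells, and Gsr and G6pdx, which supply reduced glutathione, fell by 0.40 and 0.45, both on chromosome 8 or X. Among 42 autophagy and lysosome genes 7 rose and 11 fell, 7 of the 11 on chromosome 8 or X, and the list median was -0.04 with these chromosomes and 0.06 without them.

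Hypoxia and glycolysis genes were split. Of 21 hypoxia targets 5 rose and 6 fell. The carbonic anhydrases Car9 and Car12 fell by 4.99 and 0.78, and Pdk1, which restrains pyruvate entry into mitochondria, fell to 16.9, 16.5 and 15.3 CPM in gs1B8 against 36.6, 30.9 and 36.9 CPM in parental cells (log2 -1.10 ± 0.09, adjusted p = 1.7e-08). P4ha2, a collagen hydroxylase, rose by 1.33 ± 0.14. The glucose transporter Slc2a1 rose by 0.41 and the glycolytic genes Pfkfb3 and Pgk1 fell by 0.47 and 0.33.

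Among signalling lists, TGF-beta genes were more often higher. Of 28 TGF-beta, BMP and activin genes 10 rose and 4 fell (median 0.09). The largest change on the list was a fall, that of the coreceptor Tgfbr3, at 0 counts in gs1B8. Tgfb1 itself was at 25.5, 24.8 and 30.2 CPM in gs1B8, against 13.1, 16.1 and 16.1 CPM in parental cells (log2 0.82 ± 0.13, adjusted p = 5.8e-05), Bmp1, a procollagen protease, rose by 0.53 and Skil, a repressor that the pathway itself induces, by 0.52. Of 29 Wnt and Notch genes 6 rose and 7 fell. The Notch ligand Jag1 rose by 1.16 ± 0.10, to 74.0, 74.1 and 77.0 CPM in gs1B8 against 36.0, 36.1 and 28.6 CPM in parental cells, and the Wnt inhibitor Sfrp1 fell by 5.87 ± 0.52, to 0.0791 CPM against 4.95 CPM. Among Hippo genes 4 of 24 rose and 4 fell, with the scaffold Amot lower by 2.74 ± 0.15. Among EGF receptor genes the feedback inhibitors Spry2 and Spry4 rose by 0.53 and 0.73 and the ligand Epgn fell by 2.14. Of 22 semaphorin and plexin genes 5 rose and 6 fell.

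The remaining lists held calls in both directions. Of 28 genes of the p53 pathway and apoptosis 5 rose and 5 fell. Tnfrsf10b, a death receptor, rose to 63.9, 64.7 and 69.0 CPM in gs1B8, against 41.4, 44.9 and 45.7 CPM in parental cells (log2 0.58 ± 0.06, adjusted p = 8.6e-07). Of 35 MYC and ribosome biogenesis genes 3 rose and 9 fell, with Bop1 and Nolc1 lower by 0.23 and 0.18 and Gnl3 and Wdr43 higher by 0.23 and 0.23. Among 18 mitochondrial chaperones and proteases 1 rose and 5 fell, with Timm44, a part of the import motor on chromosome 8, lower by 0.36. Among 28 peroxisome genes 3 rose and 6 fell, with Phyh and Cat, enzymes of alpha-oxidation and peroxide removal, higher by 0.51 and 0.28. Of 26 fatty acid and lipid droplet genes 2 rose and 4 fell, and Gpam, which starts glycerolipid synthesis, was lower by 0.35. Of 25 heat shock and immediate early genes 4 rose and 6 fell, with Jun higher by 0.64. Hspb1, a small heat shock protein, had 0 counts in gs1B8 and 0.504 CPM in parental cells. Of 10 genes listed under the S100 name 2 fell, S100a14 by 1.41 and S100a3 by 0.69, and 1 rose, S100pbp, which encodes a binding partner and not an S100 protein (log2 0.22, named after its value was seen), a call lost without parental replicate 3 (0.16). Of 16 endocytic receptors 5 rose and 2 fell, among them Stab1, a scavenger receptor, higher by 0.86.

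Calls were unevenly spread over the chromosomes. On chromosome 8, 477 of 735 tested genes were lower in gs1B8 and 18 were higher, and 86.7% of its genes had a log2 fold change below 0, against 52.2% of all tested genes. The median over chromosome 8 was -0.36 with quartiles of -0.45 and -0.24, over its 646 genes of at least 1 CPM, so most of its genes were shifted. Single gs1B8 libraries against the parental mean gave -0.37, -0.34 and -0.35, while each parental library set against the other 2 gave 0.019, -0.004 and -0.014. The X chromosome had 191 of 421 genes lower and 12 higher, with a median of -0.23. Chromosomes 8 and X hold 8.3% of tested genes and 27.6% of those called lower, and outside them 1655 genes were higher and 1756 lower of 12784 (26.7% called).

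Other chromosomes shifted less. Chromosome 14 had 191 of 500 genes higher and 19 lower (median 0.16). Chromosome 17 had 175 of 686 higher and 35 lower (median 0.12). Genes named above as higher that lie on chromosome 14 include Fermt2, Mmp14, Bmp1, Dnajc3, Gnl3 and Sucla2. Those on chromosome 17 include H2-K1, H2-D1 and Nfkbie. Neither list is complete. Gene lists were not counted without these chromosomes. Chromosome 19 had 151 of 478 lower and 19 higher (median -0.12), and chromosome 15 had 142 of 540 lower and 34 higher (median -0.10). Chromosomes 1, 4, 5, 6, 7, 13 and 18 had medians between -0.021 and 0.023. In the other clones, which share the parental libraries, the chromosome 8 medians were -0.57 in gs2_B4, -0.27 in gs1_B11, -0.28 in gs2_F6, -0.27 in gs1_B4 and -0.24 in gs1_C8, so parental cells stood highest for this chromosome. The X chromosome medians ranged from -0.74 in gs1_B11 to 0.03 in gs2_F6. Chromosome 15 stood at -0.11 in gs1B8 against 0.13 in gs2_B4, and chromosome 19 at -0.125 in gs1B8 against -0.58 in gs2_B4. DNA copy number was not measured, and its part in these shifts was not tested.

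**Figure D4:**
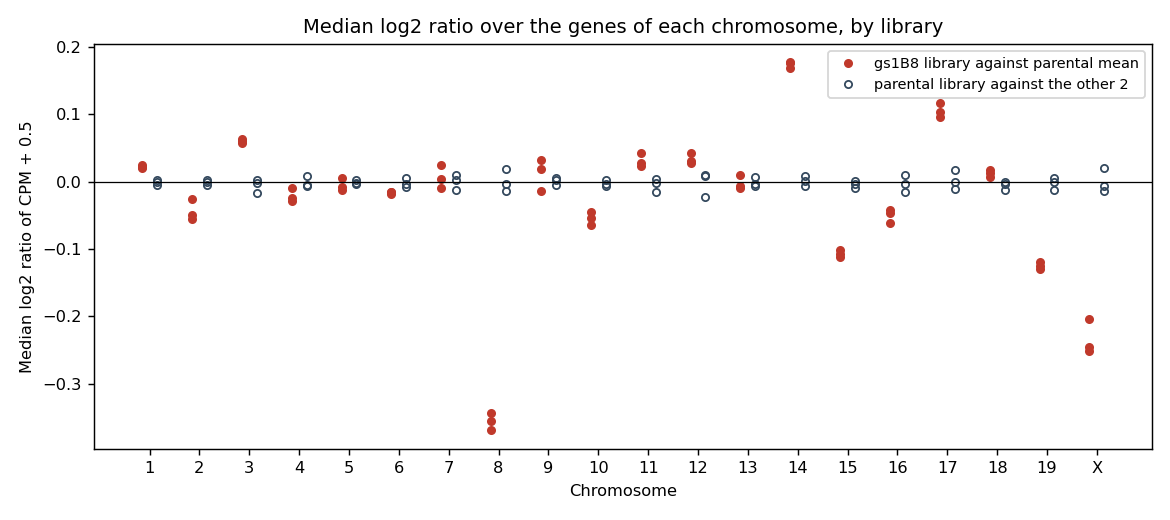
Median log2 ratio of CPM plus 0.5 over the genes of each chromosome (at least 1 CPM in gs1B8 or parental cells); red points are the 3 gs1B8 libraries against the parental mean and open points are each parental library against the other 2. The gs1B8 points lie at -0.34 to -0.37 on chromosome 8, at -0.20 to -0.25 on X and at 0.17 to 0.18 on chromosome 14, while parental points stay between -0.022 and 0.021.

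Shifts also covered parts of chromosomes. With running medians over 25 neighbouring genes, stretches past 0.25 in either direction (a threshold chosen after the data were seen) included all 646 genes of chromosome 8 and 2 stretches of the X chromosome with 134 and 120 genes. On chromosome 14 a stretch of 145 genes from Rnaseh2b to Tmtc4 (GRCm38, 62292589 to 122984035) had a median of 0.31. It held 99 genes higher and 1 lower, and it includes Bmp1 and Dnajc3, named above. On chromosome 9 a stretch of 98 genes (66514637 to 88720296, Usp3 to Mthfsl) held 50 higher and 5 lower calls, while 3 other stretches of the same chromosome, of 44, 28 and 39 genes, held 25, 17 and 18 lower calls. On chromosome 11 a stretch of 52 genes (69913888 to 73042073, Gps2 to Camkk1) had a median of 0.28 with 29 higher and 2 lower, against 0.05 in gs2_B4 and 0.27 in gs1_B11. That stretch holds Cldn7, which was lost, and its most shifted 25 genes, from 70432635 to 72207026, had a median of 0.39 with 20 of 25 higher.

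**Figure D5:**
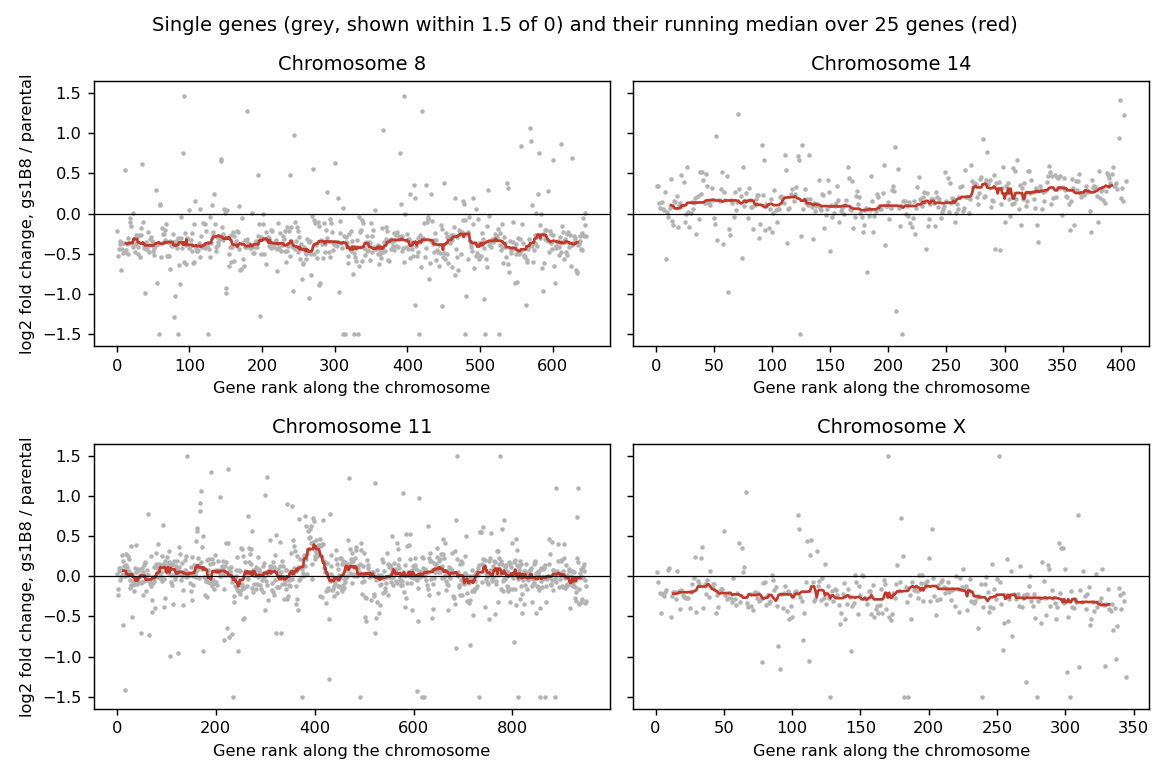
Log2 fold change (gs1B8 over parental) of single genes of at least 1 CPM by rank along chromosomes 8, 14, 11 and X, in grey and shown within 1.5 of 0, with the running median over 25 genes in red. The red line stays below 0 along chromosome 8, is highest in the later part of chromosome 14, peaks at 0.39 on chromosome 11 and lies below 0 along X.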

How the data were processed

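Per the labels' protocols, RNA was extracted from 4T1 cells with DNase treatment and libraries were made after poly-A selection. Reads were trimmed with Trimmomatic 0.35 and quantified with RSEM on GRCm38 (mm10), per the submitters' processing notes. No version of RSEM is recorded in those notes. The values are expected counts per gene, which the authors made with RSEM and deposited without normalization. They were rounded to whole numbers here.

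The test was edgeR 4.0.16 (R 4.3.3, quasi-likelihood, TMM scaling, two-sided) over the 21 libraries of the knockout arm with 1 coefficient per clone. Low genes were removed with filterByExpr, which left 13940 of 55401 genes, and p-values were adjusted with the Benjamini-Hochberg method over these at a threshold of 0.05. CPM values use TMM-scaled library sizes. For genes at 0 counts in a group, folds were bounded with a floor of 3 counts over the group, and for 1 to 3 counts a ratio with a 95% interval is given. Floors and intervals cover counting error only. Clone codes were read from the column names, and the labels number the clones without codes. Limma 3.58.1 (voom with quality weights) and DESeq2 1.42.0 were alternatives. The fit was also run on counts simulated from its own means and dispersions, which checks the code and not the spread or design of these data.

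Named genes were the core fission and fusion genes, the 15 with the largest change each way at 5 CPM or more without overlap, up to 4 called members of each list by p, and the 10 each way for gs2_B4 and for the genes apart from all groups. Members and lists were chosen with earlier results of these data known. Same-numbered libraries of gs1B8 and parental cells deviated together (r of 0.311, 0.106 and 0.176, against -0.235 to 0.048 for other pairs). The numbers in the column names are serial numbers, and no batch is named there. Reading the libraries as numbered sets was a choice made here, and the main fit did not use it. With these sets as a replicate block 4719 genes were called.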

Additional observations from a re-analysis of the deposited data

Results flagged for a closer look

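The genes here were called in opposite directions against parental cells in gs1B8 and in gs2_B4, and the difference between the clones was itself called by edgeR. Both clones were compared with the same parental libraries. Opposite calls nearly fix a difference between the clones, so the call between them is not separate support. The log2 difference, gs1B8 minus gs2_B4, was positive for Armcx4 (6.90), Lncenc1 (3.98), Ankrd6 (3.96), Satb1 (3.22), Ndrg4 (2.40) and Ulbp1 (1.02). For Zfp518a and Dsc2 the ratio of gs1B8 over gs2_B4 was 1510 and 318.

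The log2 difference was negative for Parvb (-8.79), Vgll3 (-8.60), Zfp985 (-7.09), Piezo2 (-6.97), Myo5c (-5.99), Tubb2b (-5.62), Slc40a1 (-3.84) and Sema3c (-3.22). It was also negative for Mtfp1 (-2.17), Aldoc (-2.12), Plat (-1.79), Cavin2 (-1.58), Car12 (-1.30), Krt7 (-0.55) and Tead2 (-0.50). For Zfp518b, Hexa and Rims2 the ratio of gs2_B4 over gs1B8 was 830, 810 and 263. Tgfbr3 was at least 140-fold and Sh3tc2 at least 130-fold lower in gs1B8 than in gs2_B4.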

How the results depend on the processing

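The number of genes called between gs1B8 and parental cells ranged from 3651 with all 27 libraries to 5266 with limma voom, and from 3374 to 3641 when 1 library was left out. Higher genes made up 41% of these calls in the main fit and 44.7% with DESeq2's size factors. They made up 47% without ribosomal RNA genes and 47% with the 6 libraries alone. Between gs1B8 and gs2_B4 it ranged from 5184 to 6590, and from 4890 to 5096 when 1 library was left out. The 56 genes higher in gs1B8 than in all other groups became 98 with limma voom, 36 without gs1B8 replicate 2 and 33 without gs1B8 replicate 3, and ranged from 33 to 54 over the libraries left out. The 77 lower genes ranged from 62 to 81 in the same way. The log2 fold change of Dnm1l stayed between -1.66 and -1.70. With the numbered sets as a replicate block, 4719 genes were called between gs1B8 and parental cells, 2000 higher and 2719 lower. In that fit all 232 named genes kept their direction and side of the threshold. DESeq2 did the same for the 232 named genes. No named result changed direction. Gene lists were less stable. With the 6 libraries fitted alone, the number of called members moved in 3 of 48 lists (interferon-stimulated genes to 16, nucleic acid sensors to 3, S100 genes to 5) and the median in 7. With DESeq2's size factors 0 counts and 5 medians moved, and without the members on chromosomes 8 and X 6 counts and 13 medians moved. The immune evasion median changed sign with the 6 libraries alone (0.043, against -0.027), and the autophagy median without chromosomes 8 and X (0.060, against -0.036). The fit of 6 libraries gives no value for gs2_B4. The cause was not tested.

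There is 1 clone, set against the parental line, with 3 libraries on each side. Protein and DNA copy number were not measured, and genes under a few counts are known only through bounds.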
